A study of Mus musculus with 6 samples.

Results

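The creatine kinases, the genes of creatine supply, adenylate kinase 1 and the AMP deaminases form the energy phosphate system of muscle, and 10 mouse genes of it were followed here. They were chosen by symbol as Ckm, Ckb, Ckmt1, Ckmt2, Gatm, Gamt, Slc6a8, Ak1, Ampd1 and Ampd3, and 10 of the 54532 genes in the count table matched. The libraries came from quadriceps of mouse pups at postnatal day 10, kept on chow, with 3 libraries of Myf5Cre-Pcyt2 pups (Myf5Cre-Pcyt2 flox/flox) and 3 of control pups (Pcyt2 flox/flox). Both groups carry the floxed Pcyt2 allele, and only the Myf5Cre-Pcyt2 pups are labelled as carrying Cre. Pcyt2 encodes the enzyme that makes CDP-ethanolamine for phosphatidylethanolamine. Cre driven from Myf5 acts in muscle precursors and in other cells of that lineage, among them brown fat precursors, and not in every cell of a muscle. No Cre is given for the controls, and Cre itself and the loss of Pcyt2 therefore cannot be told apart.

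Muscle contraction can use ATP faster than mitochondria can replace it, and phosphocreatine acts as the rapid reserve. Mitochondrial creatine kinase makes phosphocreatine from newly exported ATP, and cytosolic creatine kinase turns it back into ATP at the myofibrils and the calcium pumps. Adenylate kinase makes ATP and AMP from a pair of ADP molecules, and AMP deaminase removes the AMP as IMP, which feeds the purine nucleotide cycle. During muscle maturation the brain type of cytosolic creatine kinase is known to give way to the muscle type.

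Of the 10 genes, 6 fell in Myf5Cre-Pcyt2 muscle, 0 rose, 3 did not pass the test and Ckmt1 had too few counts to be tested (edgeR's quasi-likelihood test with Benjamini-Hochberg adjustment over 14715 tested genes, threshold 0.05). The genes that fell were Ckm, Ckmt2, Ampd1, Ak1, Slc6a8 and Gamt. Over all tested genes, 9.59% were lower and 9.02% were higher in Myf5Cre-Pcyt2 muscle, 18.6% in all. Levels are CPM, counts scaled to a common library size with TMM factors. For the same 6 genes every Myf5Cre-Pcyt2 library had a lower CPM than every control library, against 19.2% of all tested genes, and for 0 members every Myf5Cre-Pcyt2 library was higher, against 19.9% of all tested genes. The median log2 fold change was −0.37 over the 9 tested members and −0.00197 over all tested genes. No member was higher at an unadjusted p under 0.05 (0), with DESeq2 (0) or with limma-voom (0). With no filter on low counts 1 member, Gatm, was higher, though its groups overlapped. Leaving out Myf5Cre-Pcyt2 replicate 2 left 3 of the 6 calls, leaving out control replicate 2 or Myf5Cre-Pcyt2 replicate 3 left 4, and leaving out any one of the others left 5.

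In the libraries as a whole, Pcyt2 itself had 280, 328 and 272 counts in Myf5Cre-Pcyt2 muscle, against 353, 277 and 277 counts in control muscle. Its fitted change of −0.28 on the log2 scale (SE 0.11, edgeR adjusted p = 0.0944) did not pass. No source used here names the deleted exons, and reads of the remaining exons would still be counted, so this does not check the deletion. Library totals lay between 18271765 and 20446920 counts in Myf5Cre-Pcyt2 and between 17775898 and 20216013 in control. Replicate 3 of each group was male and the others female, by Xist and Y-linked counts. The 10 skeletal muscle markers, among them Acta1, Des and Ttn, were all detected. Their summed level was 95622 to 120782 CPM in Myf5Cre-Pcyt2 and 143143 to 191909 CPM in control. Most of each sum was Acta1 and Myh4, which did not pass (edgeR adjusted p = 0.0699 and 0.0973). Of the 10 markers, 3 (Mylpf, Tnni2 and Tnnt3) fell and 1 (Myod1) rose. The 3 became 5 with DESeq2 or limma-voom, 6 with no filter on low counts, 2 without control replicate 3, and 0 with sex as a covariate or without control replicate 2, Myf5Cre-Pcyt2 replicate 2 or Myf5Cre-Pcyt2 replicate 3. The 1 became 0 with DESeq2, with no filter, with sex as a covariate and whichever single library was left out, and 2 under scaling by library size alone. Markers of Schwann cells were higher, with 5 of 8 past the threshold and a summed level of 663 to 900.3 CPM in Myf5Cre-Pcyt2, against 445 to 546 CPM in control, and the 5 became 3 without Myf5Cre-Pcyt2 replicate 2. Fibroblast markers summed to 16108 to 18122 CPM in Myf5Cre-Pcyt2 and 11532 to 15171 CPM in control. Most of each sum was Col1a1, Col1a2 and Col3a1, which did not pass (edgeR adjusted p = 0.184, 0.168 and 0.0858). Of the 6 fibroblast markers 1, Pdgfra, was past the threshold and higher. With DESeq2 3 were higher, and under scaling by library size alone 5 were. The summed levels of endothelial and macrophage markers overlapped. Of the 6 endothelial markers 1, Emcn, fell (log2 fold change −0.32, edgeR adjusted p = 0.0263). The Emcn call was lost under scaling by library size alone (0.456) and when any one library other than control replicate 3 was left out. The part of these cells in the results was not tested. In bulk muscle, fewer cells of a type and less RNA per cell cannot be told apart. With library size as the only scaling the median over all tested genes shifted by 0.21 (log2), and 3225 genes were higher and 499 lower, against 1328 higher and 1411 lower with TMM. All changes are given relative to TMM.

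**Figure D1:**
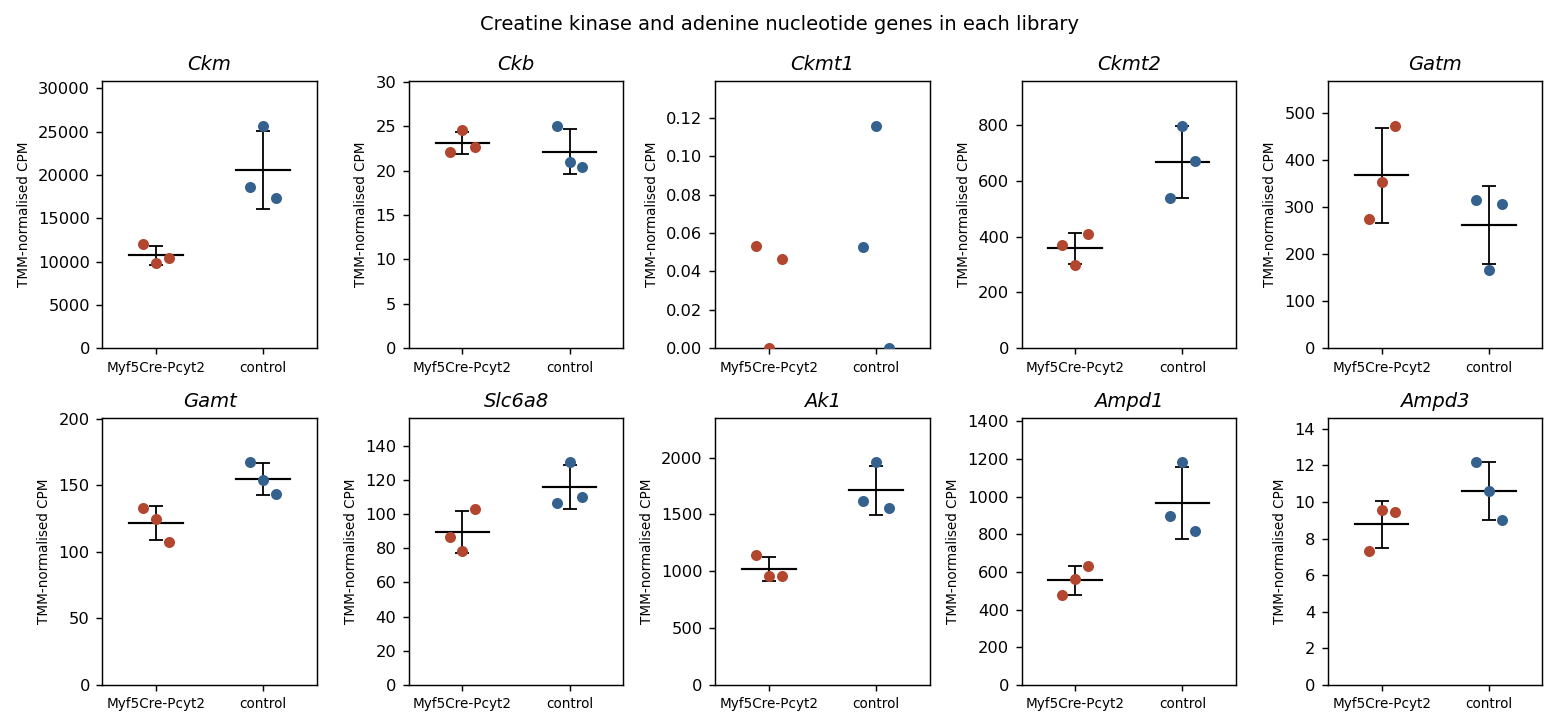
TMM-normalised CPM (vertical axis, linear, from 0) of the 10 genes in the 3 Myf5Cre-Pcyt2 libraries (red, left) and the 3 control libraries (blue, right); points are libraries, lines are means and bars are SD, and Ckmt1, with at most 2 counts per library, has points only. For Ckm, Ckmt2, Gamt, Slc6a8, Ak1 and Ampd1 every Myf5Cre-Pcyt2 library lies below every control library.

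Levels per length were compared between the genes, as CPM per kilobase of exon. Ckm was far above the rest with 3683 ± 385 in Myf5Cre-Pcyt2 and 7056 ± 1545 in control (SD, n = 3 per group). Ak1 followed with 394 ± 42 in Myf5Cre-Pcyt2 and 660.4 ± 83.3 in control, then Ckmt2 with 241 ± 37.2 in Myf5Cre-Pcyt2 and 450.1 ± 86.9 in control, and Ampd1 with 157 ± 21.5 in Myf5Cre-Pcyt2 and 272 ± 54 in control. Gamt and Gatm came next, and their ranges overlapped in both groups, so their order is not set. Slc6a8, Ckb, Ampd3 and Ckmt1 followed in that order, each apart from its neighbour in both groups. Slc6a8 had 17.2 ± 2.38 in Myf5Cre-Pcyt2 and 22.2 ± 2.47 in control. Ckb had 7.99 ± 0.433 in Myf5Cre-Pcyt2 and 7.65 ± 0.883 in control. Ampd3 had 1.56 ± 0.226 in Myf5Cre-Pcyt2 and 1.89 ± 0.279 in control. The genes of the muscle isoforms and of creatine synthesis were thus at the top of the order, and Ckb and Ampd3 stood near its end.

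Ckm (ENSMUSG00000030399, GRCm38 chromosome 7, 19404776 to 19422841, plus strand) encodes the muscle type of cytosolic creatine kinase, which also sits at the M-band of the sarcomere. It had 11985, 9828 and 10368 CPM in the Myf5Cre-Pcyt2 libraries, against 18589, 25702 and 17369 CPM in the control libraries. All Myf5Cre-Pcyt2 libraries lay below the lowest control library, and control replicate 2 was the highest. The log2 fold change was −0.94 (SE 0.20, adjusted p = 0.0123), which left 52.2% of the control level. The call for Ckm was lost without Myf5Cre-Pcyt2 replicate 2 (0.0740) or Myf5Cre-Pcyt2 replicate 3 (0.0717), at log2 fold changes of −0.88 and −0.92, and its adjusted p ranged from 8.98e-10 to 0.0919 over 15 alternatives. Ckm alone took 1.23, 1.101 and 1.12% of all counts in the Myf5Cre-Pcyt2 libraries, against 1.80, 2.19 and 1.69% in the control libraries. By count it ranked 7 among all genes in each Myf5Cre-Pcyt2 library, and 4, 4 and 5 in the control libraries. The antisense gene A930016O22Rik shares 451 exon bases with Ckm on the opposite strand. It had 4180, 6043 and 4737 counts in Myf5Cre-Pcyt2, against 3114, 2364 and 3716 in control (log2 fold change 0.45, SE 0.15, adjusted p = 0.0608, 5.72e-04 to 0.212 over alternatives), and reads of the shared stretch cannot be assigned without a known strand setting.

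Ckb (ENSMUSG00000001270, chromosome 12, 111669361 to 111672338, minus strand) encodes the brain type of the cytosolic enzyme, which smooth muscle, nerve and many other cells express. It had 22.2, 24.5 and 22.7 CPM in Myf5Cre-Pcyt2, against 25.1, 20.999 and 20.4 CPM in control. The groups overlapped, and the log2 fold change of 0.06 (SE 0.10, adjusted p = 0.707) did not pass, with a 95% interval from −0.16 to 0.29. The 6 smooth muscle markers summed to 673 to 849 CPM in Myf5Cre-Pcyt2, against 1039 to 1188 CPM in control. Most of each sum was Acta2, which fell, with 589, 348 and 476 CPM in Myf5Cre-Pcyt2, against 770, 781 and 918 CPM in control. The other 5 did not pass, and the median log2 fold change of the 6 was −0.03. The part of smooth muscle or Schwann cells in the Ckb level was not tested.

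As a share of the counts of both cytosolic kinases, Ckb took 0.185, 0.249 and 0.218% in Myf5Cre-Pcyt2, against 0.135, 0.0816 and 0.117% in control. Every Myf5Cre-Pcyt2 share was above every control share, with means of 0.217 ± 0.0323% in Myf5Cre-Pcyt2 and 0.111 ± 0.0271% in control (SD, n = 3 per group). An exact permutation test, two-sided, gave p = 0.1, the smallest p that 3 against 3 libraries allow, and 0.15 adjusted over the 3 shares compared. Ckb levels overlapped between the groups and Ckm levels did not. The 2 genes are close relatives, and how reads that match both were counted is not known here, so the small share is uncertain.

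Ckmt2 (ENSMUSG00000021622, chromosome 13, 91853387 to 91876885, minus strand) encodes the sarcomeric mitochondrial creatine kinase of the intermembrane space. It had 369, 299 and 408 CPM in Myf5Cre-Pcyt2, against 539.6, 798 and 669 CPM in control. The groups did not overlap, and the log2 fold change was −0.90 (SE 0.16, adjusted p = 0.00571), or 53.6% of the control level. It passed under each of the 15 alternatives (highest adjusted p 0.0321). The antisense gene 1700119I11Rik shares 84 exon bases with Ckmt2 and had 15, 18 and 17 counts in Myf5Cre-Pcyt2, against 8, 2 and 6 in control. It rose at this low depth (log2 fold change 1.38, SE 0.41, adjusted p = 0.0401), and the call was lost with sex as a covariate (0.0594) and when any one library other than control replicate 1 was left out, with adjusted p of up to 0.126 (0.0231 to 0.126 over alternatives). Ckmt1 (ENSMUSG00000000308, chromosome 2, 121357714 to 121363737, plus strand), the ubiquitous mitochondrial form, had 1, 0 and 1 counts in Myf5Cre-Pcyt2, against 1, 2 and 0 counts in control, which is under the floor of 3 counts per library, so no fold is given. The share of mitochondrial forms among all creatine kinase counts was 2.98, 2.94 and 3.78% in Myf5Cre-Pcyt2, against 2.82, 3.01 and 3.71% in control. These overlapped (exact permutation test, two-sided, p = 0.7, and 0.7 adjusted over the 3 shares), with a difference of 0.0568 percentage points that ran from −0.216 to 0.321 when single libraries were left out.

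**Figure D2:**
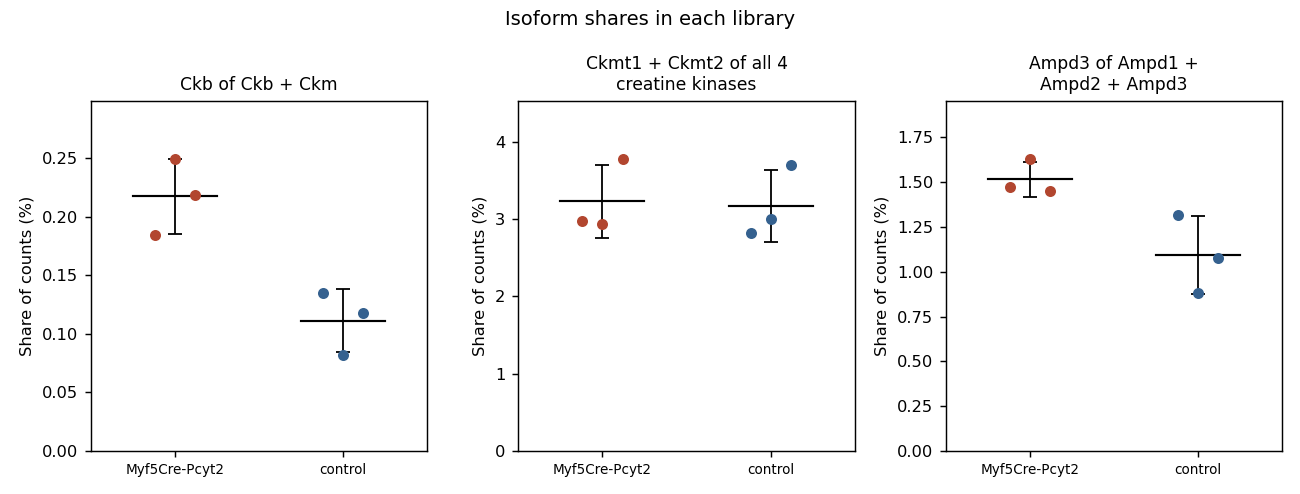
Share of counts in percent (vertical axes, linear, from 0) for Ckb among cytosolic creatine kinases, for mitochondrial forms among all creatine kinases and for Ampd3 among AMP deaminases; points are the 3 libraries of each group, lines are means and bars are SD. The Ckb and Ampd3 shares of the Myf5Cre-Pcyt2 libraries lie above those of all control libraries, and the mitochondrial shares overlap.

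To show the sequence around the start sites of kinases that fell and of one that did not, RefSeq promoter windows on GRCm38.p6 are given for Ckm, Ckmt2, Ckb and Ak1, from 250 bases before to 50 bases after a start. They read 5′ to 3′ on the gene's strand, and capitals mark E-boxes (CANNTG, the motif that myogenic regulators bind) and MEF2 motifs. The Ckm window is chr7:19410844-19411143 (plus), the Ckmt2 window chr13:91876836-91877135 (minus), the Ckb window chr12:111672289-111672588 (minus) and the Ak1 window, 1 of 4 for that gene, chr2:32625187-32625486 (plus).
Ckm: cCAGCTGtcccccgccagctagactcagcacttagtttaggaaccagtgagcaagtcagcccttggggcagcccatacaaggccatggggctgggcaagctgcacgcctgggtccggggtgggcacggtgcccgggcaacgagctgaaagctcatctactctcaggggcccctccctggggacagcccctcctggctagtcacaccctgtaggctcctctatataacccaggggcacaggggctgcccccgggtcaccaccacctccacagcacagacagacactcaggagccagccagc
Ckmt2: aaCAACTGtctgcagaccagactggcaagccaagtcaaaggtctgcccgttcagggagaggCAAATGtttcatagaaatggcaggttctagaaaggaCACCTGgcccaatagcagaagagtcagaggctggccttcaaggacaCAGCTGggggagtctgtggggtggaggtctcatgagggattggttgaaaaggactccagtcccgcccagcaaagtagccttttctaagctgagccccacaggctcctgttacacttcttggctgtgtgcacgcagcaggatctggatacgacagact
Ckb: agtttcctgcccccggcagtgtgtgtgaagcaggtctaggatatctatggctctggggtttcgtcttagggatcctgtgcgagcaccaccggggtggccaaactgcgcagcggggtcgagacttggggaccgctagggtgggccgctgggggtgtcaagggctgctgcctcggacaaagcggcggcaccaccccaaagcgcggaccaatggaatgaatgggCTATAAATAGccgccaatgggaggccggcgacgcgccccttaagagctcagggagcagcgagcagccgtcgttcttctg
Ak1: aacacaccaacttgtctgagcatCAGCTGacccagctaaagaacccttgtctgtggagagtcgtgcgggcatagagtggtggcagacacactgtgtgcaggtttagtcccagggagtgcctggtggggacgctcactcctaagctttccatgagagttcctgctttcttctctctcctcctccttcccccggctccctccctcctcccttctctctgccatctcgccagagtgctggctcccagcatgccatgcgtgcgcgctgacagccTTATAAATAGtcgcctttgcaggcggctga
Windows were found for 8 of the 10 genes, 14 windows in all, without Ampd1 and Slc6a8. An E-box lay in at least 1 window of 7 of the 8 genes, and 72.3% of all 32851 windows hold one. Ckmt2 had 4 E-boxes, which began at −248, −189, −153 and −107 relative to the start (the start base counted as 0), and Ckm had 1 at −249. Ckb was the gene with none. A MEF2 match was found in the Ckb window at −29 and in the Ak1 window shown at 20, and 3.19% of all windows hold one. In both windows the MEF2 match overlaps a TATAAA motif. The other Ak1 windows, not shown, held neither motif. TATAAA was found for 3 of the genes (Ckb, Ckmt1 and Ak1) and in 13.6% of all windows, and the MCAT motif CATTCC for Ckb and Ckmt1 and in 14.7%. A CArG match was found in 1 of 3 Ampd3 windows and in 1.63% of all windows. Both strands were searched, and genes with several windows had more chances of a match. A match describes the letters in the window and is not a binding site.

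Creatine is made in a first step by arginine:glycine amidinotransferase, encoded by Gatm, and a second by guanidinoacetate methyltransferase, encoded by Gamt, and is taken up by the transporter encoded by Slc6a8. Gatm (ENSMUSG00000027199, chromosome 2, 122594467 to 122611303, minus strand) had 275, 355 and 474 CPM in Myf5Cre-Pcyt2, against 316, 167 and 306 CPM in control. The groups overlapped, with control replicate 2 the lowest of the 6 libraries. The log2 fold change of 0.48 (SE 0.24, adjusted p = 0.178) did not pass, with a 95% interval from −0.05 to 1.01, and its adjusted p ranged from 2.23e-04, with no filter on low counts, to 0.525. Without control replicate 2 the log2 fold change was 0.24, and without Myf5Cre-Pcyt2 replicate 3 it was 0.26. The 8 adipocyte markers summed to 435 to 496 CPM in Myf5Cre-Pcyt2 and to 312 to 899.6 CPM in control. Control replicate 2 was the lowest there too. Control replicate 1 was the highest there, while its Gatm level lay below those of Myf5Cre-Pcyt2 replicates 2 and 3. Most of each sum was Fabp4 (368 to 419 CPM in Myf5Cre-Pcyt2 and 289 to 581 CPM in control). Plin1 had 24.6, 31.1 and 37.5 CPM in Myf5Cre-Pcyt2, against 101.6, 7.95 and 28.8 CPM in control. Ucp1 had 8.22, 7.20 and 7.11 CPM in Myf5Cre-Pcyt2, against 75.5, 1.80 and 30.9 CPM in control. None of the 8 passed, and 4 were lower without control replicate 2 and 6 with no filter on low counts. Without the filter, edgeR's quasi-likelihood test gave Ucp1 an adjusted p of 1.14e-74 although its groups overlapped. Calls made only without the filter, that of Gatm among them, are therefore uncertain. The part of adipocytes in the Gatm level was not tested.

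Gamt (ENSMUSG00000020150, chromosome 10, 80258151 to 80261012, minus strand) had 132, 125 and 107 CPM in Myf5Cre-Pcyt2, against 167, 154 and 143 CPM in control. The groups did not overlap, and the log2 fold change was −0.35 (SE 0.10, adjusted p = 0.0384). Its adjusted p was above the threshold without control replicate 1 (0.0936), control replicate 2 (0.0856), Myf5Cre-Pcyt2 replicate 2 (0.0977) or Myf5Cre-Pcyt2 replicate 3 (0.154), and under scaling by library size alone (0.355), and ranged from 0.00995 to 0.355. As a share of Gatm plus Gamt counts, chosen after these values were seen and given with no test, Gatm took 67.5, 74.0 and 81.5% in Myf5Cre-Pcyt2, against 65.4, 52.0 and 68.1% in control, and these overlapped.

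Slc6a8 (ENSMUSG00000019558, chromosome X, 73673150 to 73682502, plus strand) had 86.7, 78.5 and 103 CPM in Myf5Cre-Pcyt2, against 106, 130.5 and 110.3 CPM in control. The highest Myf5Cre-Pcyt2 library, replicate 3, lay just under the lowest control library. The log2 fold change was −0.37 (SE 0.12, adjusted p = 0.0489), close to the threshold. With sex as a covariate the log2 fold change was −0.38 and did not pass (0.0583). The call was also lost without control replicate 2 (0.160), control replicate 3 (0.0609), Myf5Cre-Pcyt2 replicate 1 (0.109) or Myf5Cre-Pcyt2 replicate 2 (0.185), and under scaling by library size alone (0.297), over a range of 0.00478 to 0.297. The log2 fold changes of Gamt and Slc6a8 under library size alone were −0.14 and −0.16. The falls of these creatine supply genes were the smallest of the 6, with 78.5% of the control level left for Gamt and 77.2% for Slc6a8.

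**Figure D3:**
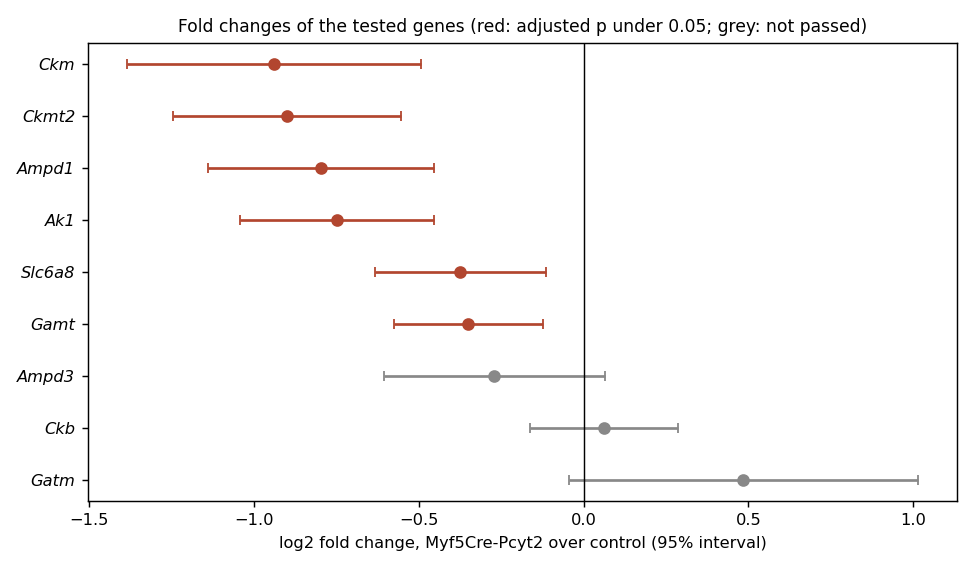
Log2 fold changes of the 9 tested genes, Myf5Cre-Pcyt2 over control (horizontal axis), with 95% intervals from the edgeR fit; red genes passed an adjusted p of 0.05 and grey genes did not. Ckm, Ckmt2, Ampd1 and Ak1 lie between −0.94 and −0.75, Slc6a8 and Gamt at −0.37 and −0.35, and the intervals of Ampd3, Ckb and Gatm cross 0.

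Ak1 (ENSMUSG00000026817, chromosome 2, 32621758 to 32635058, plus strand) encodes the cytosolic adenylate kinase of muscle. It had 1146, 959.8 and 956 CPM in Myf5Cre-Pcyt2, against 1618, 1959.6 and 1559 CPM in control. All Myf5Cre-Pcyt2 libraries were lower than all control libraries, and the log2 fold change was −0.75 (SE 0.13, adjusted p = 0.00602), or 59.6% of the control level. Ak1 passed under each of the 15 alternatives (highest adjusted p 0.0387).

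Ampd1 (ENSMUSG00000070385, chromosome 3, 103074014 to 103099720, plus strand) encodes the AMP deaminase of skeletal muscle fibres. It had 477, 561 and 630.0 CPM in Myf5Cre-Pcyt2, against 895, 1183 and 820.0 CPM in control. Again no Myf5Cre-Pcyt2 library reached the lowest control library, and the log2 fold change was −0.80 (SE 0.15, adjusted p = 0.00836), or 57.6% of the control level, with a pass under each of the 15 alternatives (highest adjusted p 0.0412).

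Ampd3 (ENSMUSG00000005686, chromosome 7, 110768206 to 110812405, plus strand) encodes the AMP deaminase best known from red blood cells, which muscle also makes. It had 7.31, 9.56 and 9.47 CPM in Myf5Cre-Pcyt2, against 12.2, 10.6 and 9.04 CPM in control. The groups overlapped, and the log2 fold change of −0.27 (SE 0.15, adjusted p = 0.230) did not pass, with a 95% interval from −0.60 to 0.06. The 8 erythroid markers summed to 262 to 360.3 CPM in Myf5Cre-Pcyt2 and to 225 to 334 CPM in control, and none was at 0 in all libraries. Of the 6 tested, 1 (Alas2) rose and the globin genes Hba-a1, Hba-a2, Hbb-bs and Hbb-bt did not pass. The Alas2 call (adjusted p = 0.0331 by edgeR's quasi-likelihood test) was lost without control replicate 1 (0.0563), control replicate 2 (0.0979), Myf5Cre-Pcyt2 replicate 1 (0.0736) or Myf5Cre-Pcyt2 replicate 3 (0.131), over a range of 0.0110 to 0.131. The count of erythroid genes higher was 2 without control replicate 3, with no filter or under scaling by library size alone. Their part in the Ampd3 level was not tested. Rnf141, on the opposite strand, shares 195 exon bases with Ampd3 and had more counts (377, 438 and 431 in Myf5Cre-Pcyt2, against 413, 424 and 431 in control) than Ampd3 (137, 219 and 205 in Myf5Cre-Pcyt2, against 230, 183 and 156 in control), so the Ampd3 count is uncertain.

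Ampd3 took 1.47, 1.63 and 1.45% of the counts of Ampd1, Ampd2 and Ampd3 in Myf5Cre-Pcyt2, against 1.32, 0.882 and 1.08% in control. Every Myf5Cre-Pcyt2 share was again the higher, with means of 1.52 ± 0.0977% in Myf5Cre-Pcyt2 and 1.09 ± 0.219% in control (SD, n = 3 per group; exact permutation test, two-sided, p = 0.1, the smallest possible, and 0.15 adjusted over the 3 shares). The Ampd3 level itself did not pass the test and the Ampd1 level was lower.

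Across the 6 genes that fell, control replicate 2 was the highest control library for 5 and control replicate 1 for 1. The lowest Myf5Cre-Pcyt2 library was replicate 1 for 1 gene, replicate 2 for 3 and replicate 3 for 2. The combined counts of the 10 genes made up 1.49, 1.37 and 1.41% of all counts in Myf5Cre-Pcyt2, against 2.15, 2.57 and 2.04% in control. Most of these counts came from Ckm.

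By likeness of profile, the genes nearest to Ckmt2, the member with the smallest p, were Taco1, Perm1, Carnmt1, Lrrc38 and Klhdc1. Likeness was the root mean square difference of log2 CPM, each gene centred over the 6 libraries. It was taken over 8522 tested genes with a mean of at least 10 CPM, with gene models (Gm or Rik symbols) and pseudogenes left out. Differences of the 5 named genes from Ckmt2 were 0.0602, 0.0769, 0.0908, 0.0948 and 0.0954, against a median of 0.492 over all genes compared. As the 5 smallest, they lie below that median by choice. A gene with a flat profile would differ by 0.493, the root mean square of Ckmt2 about its own mean. Taco1, a translational activator of mitochondrial cytochrome oxidase, had 24.6 CPM in Myf5Cre-Pcyt2 and 46.3 CPM in control on average. Perm1, a regulator induced by PGC-1 and estrogen-related receptors in muscle, had 103 CPM in Myf5Cre-Pcyt2 and 179 CPM in control. Carnmt1 encodes the methyltransferase that makes anserine from carnosine. It had 8.88 CPM in Myf5Cre-Pcyt2 and 17.3 CPM in control.

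The surrounding purine network was followed in gene lists by function. Over all tested genes 9.59% were lower and 9.02% higher, to be set beside the counts of each list. Of 18 genes of the purine nucleotide cycle, AMP breakdown and salvage, 17 were tested, 5 fell and 1 rose, with a median log2 fold change of −0.25. Nt5c1a, the cytosolic AMP nucleotidase of muscle, had 2.14, 2.36 and 2.13 CPM in Myf5Cre-Pcyt2, against 5.08, 6.50 and 3.53 CPM in control (log2 fold change −1.19, SE 0.23, adjusted p = 0.0087). Adssl1, the muscle adenylosuccinate synthase that starts the return from IMP to AMP, had 389, 325 and 349.9 CPM in Myf5Cre-Pcyt2, against 474, 747 and 541 CPM in control (−0.73, SE 0.16, adjusted p = 0.0125). Adk, the adenosine kinase, had 64.9, 40.9 and 58.4 CPM in Myf5Cre-Pcyt2, against 77.2, 93.9 and 87.8 CPM in control (−0.66, SE 0.15, adjusted p = 0.0154). Each of these genes was lower in all Myf5Cre-Pcyt2 libraries than in any control library, which their call in the same libraries makes likely. Of the list, 7 genes were lower in this way and 2 higher, against 19.2% and 19.9% of all tested genes. The Adssl1 call was lost without Myf5Cre-Pcyt2 replicate 2 (0.0630, between 8.31e-09 and 0.0630 over alternatives), and the Adk call without control replicate 2 (0.0558, between 2.44e-08 and 0.0558). Nt5c1a passed under all 15. Nt5c2, the cytosolic IMP and GMP nucleotidase, rose, with 35.9, 46.2 and 37.1 CPM in Myf5Cre-Pcyt2, against 23.1, 22.4 and 28.3 CPM in control (0.69, SE 0.12, adjusted p = 0.00603). The 5 became 2 without control replicate 2 or Myf5Cre-Pcyt2 replicate 2 and 3 without replicate 3 of either group or with library size alone, and the 1 became 2 without control replicate 3 or with library size alone.

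Of 11 genes of de novo purine synthesis, all tested, 1 fell and 0 rose with edgeR, against 9.59% and 9.02% of all tested genes. The median log2 fold change of the 11 was −0.01. At an unadjusted p under 0.05, 2 of the 11 were higher, and 0 were higher with DESeq2 or limma-voom. Paics, a bifunctional enzyme of the pathway, had 119, 100.2 and 115 CPM in Myf5Cre-Pcyt2, against 134, 158 and 143 CPM in control (−0.38, SE 0.10, adjusted p = 0.0250). The call was lost without control replicate 2 (0.0812), Myf5Cre-Pcyt2 replicate 2 (0.105) or Myf5Cre-Pcyt2 replicate 3 (0.0695), and under scaling by library size alone (0.182), over a range of 0.00398 to 0.182. The 1 lower gene became 2 without control replicate 1, control replicate 3 or Myf5Cre-Pcyt2 replicate 1, and 0 without Myf5Cre-Pcyt2 replicates 2 or 3. With DESeq2 or no filter it became 3. With no filter on low counts, 1 gene was higher, as it was when replicate 1 of either group was left out, and with library size alone 4 were.

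Over all tested genes, 9.02% rose and 9.59% fell. Of 8 genes that carry ADP, ATP and other adenine nucleotides across the mitochondrial membranes, 1 rose and 0 fell with edgeR (median −0.20). At an unadjusted p under 0.05, 2 were lower, and 2 were lower with DESeq2, 1 with limma-voom and 2 without a filter or without control replicate 1. Slc25a24, a calcium-dependent carrier of ATP-magnesium, had 31.1, 35.7 and 33.6 CPM in Myf5Cre-Pcyt2, against 18.6, 16.5 and 24.2 CPM in control (0.76, SE 0.13, adjusted p = 0.00541). Slc25a4, the ADP/ATP carrier of heart and skeletal muscle, was chosen after its values were seen. It had 3597, 2894 and 3230.5 CPM in Myf5Cre-Pcyt2, against 3842, 4884 and 4685 CPM in control. The groups did not overlap, and the log2 fold change of −0.46 (SE 0.15, adjusted p = 0.0540) did not pass. Slc25a4 did pass with limma-voom (0.0419), with DESeq2 (7.97e-04), without a filter on low counts (0.00741) and without control replicate 1 (0.0367), over a range of 7.97e-04 to 0.212.

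AMP-activated protein kinase senses the AMP that adenylate kinase makes. Of 11 genes of its subunits, its upstream kinases and partners of these kinases, 3 fell and 1 rose (median −0.12), against 9.59% and 9.02% of all tested genes. The 3 that fell encode subunits of the forms known from skeletal muscle. Prkag3, the gamma subunit of fast muscle, had 88.7, 52.0 and 64.7 CPM in Myf5Cre-Pcyt2, against 116, 178 and 139 CPM in control (−1.08, SE 0.19, adjusted p = 0.00615). Prkaa2, a catalytic subunit, had 308, 229 and 275 CPM in Myf5Cre-Pcyt2, against 346, 446 and 377 CPM in control (−0.53, SE 0.13, adjusted p = 0.0215). Prkab2, a scaffold subunit, had 189.8, 135 and 193 CPM in Myf5Cre-Pcyt2, against 221, 283 and 244 CPM in control (−0.53, SE 0.14, adjusted p = 0.0291). For all 3 genes every Myf5Cre-Pcyt2 library was below every control library, which their call in the same libraries makes likely. Of the list, 5 genes were lower in this way and 2 higher, against 19.2% and 19.9% of all tested genes. The Prkaa2 call was lost without control replicate 2 (0.0693), Myf5Cre-Pcyt2 replicate 2 (0.0903) or Myf5Cre-Pcyt2 replicate 3 (0.0696), over a range of 4.66e-05 to 0.0903. The Prkab2 call was lost without control replicate 2 (0.0964) or Myf5Cre-Pcyt2 replicate 2 (0.0929), and under scaling by library size alone (0.0720), over a range of 2.15e-05 to 0.0964. Camkk2, a calcium-dependent upstream kinase, rose with 17.4, 21.5 and 19.0 CPM in Myf5Cre-Pcyt2, against 16.2, 14.4 and 13.8 CPM in control (0.38, SE 0.11, adjusted p = 0.0360). Its call was lost without control replicate 2 (0.103), control replicate 3 (0.0969), Myf5Cre-Pcyt2 replicate 2 (0.148) or Myf5Cre-Pcyt2 replicate 3 (0.0935), and with a covariate for sex (0.0509), over a range of 0.0137 to 0.148. Prkag3 passed under all 15 alternatives. The 3 lower genes became 1 without control replicate 2 or Myf5Cre-Pcyt2 replicate 2. Under scaling by library size alone 3 genes were higher, and none was higher where the Camkk2 call was lost.

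**Figure D4:**
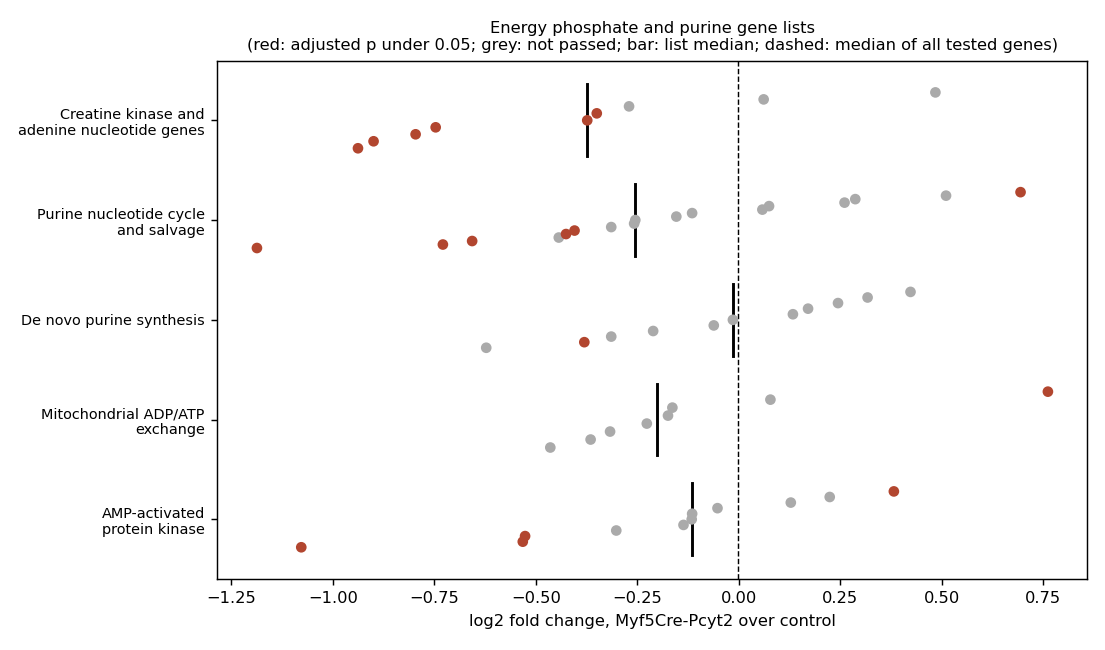
Log2 fold changes, Myf5Cre-Pcyt2 over control (horizontal axis), of the tested genes of 5 lists; each point is a gene, red where the adjusted p was under 0.05 and grey where not, the bar is the list median and the dashed line the median of all tested genes. The creatine kinase and adenine nucleotide genes have a median of −0.37, and the other lists have medians between −0.25 and −0.01.

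**Figure D5:**
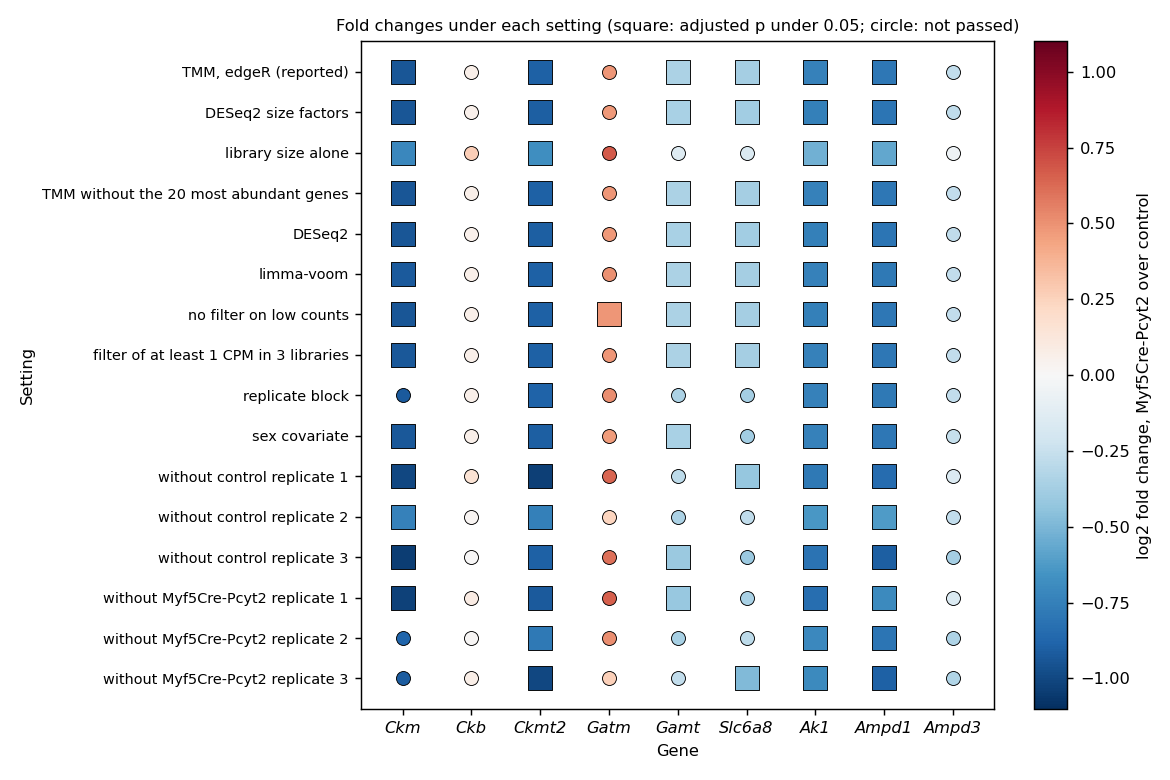
Log2 fold changes, Myf5Cre-Pcyt2 over control (colour), of the 9 tested genes under the reported setting (top row) and 15 alternatives; squares passed an adjusted p of 0.05 and circles did not. Ckmt2, Ak1 and Ampd1 are squares in every row, Ckm is a circle in 3 rows, and no gene changes sign.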

How the data were processed

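Counts per Ensembl gene were deposited by the authors as whole numbers for 6 mouse quadriceps libraries. The submitters' processing notes list the build GRCm38 (mm10) and the tools Subread 1.6.2 (with featureCounts), Bowtie2 2.3.4.1 and Trim Galore 0.5.0. What each tool was used for, the annotation release, the strand setting and how reads matching several genes were counted is not stated there. Of the 54532 genes, 54495 were given a symbol, position and union exon length from GENCODE M21 on GRCm38.

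Libraries were scaled with TMM factors, and the 14715 genes kept by edgeR's filterByExpr were tested together by the quasi-likelihood test of edgeR (two-sided; Benjamini-Hochberg over all tested genes, threshold 0.05). R 4.3.3, edgeR 4.0.16, limma 3.58.1, DESeq2 1.42.0, Python 3.11.15, pandas 2.3.3, scipy 1.17.1 and matplotlib 3.10.9 were used. Intervals are 95% intervals from that fit, and isoform shares were compared by an exact permutation test. The procedure was also run on simulated counts that had the same spread for every gene, which does not check the calls reported here. The alternatives were other scalings, DESeq2, limma-voom, other filters on low counts, sex as a covariate, a block for the replicate number, and fits with 1 library left out. The genes described and the gene lists beside them were chosen with earlier results of these data known. Named list genes are the 3 with the smallest p among those past the threshold in each direction, and any other gene named was chosen after its values were seen. Library totals ran between 17775898 and 20446920 counts, and since nothing says that the pups came from separate litters, p-values cover only the spread seen among these samples. The list of other adenylate kinase genes is not reported here as a whole.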

Additional observations from a re-analysis of the deposited data

How the results depend on the processing

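Over 15 alternatives the direction of each of the 9 tested members stayed as reported. Ckmt2, Ak1 and Ampd1 passed under every one. The 6 lower members became 4 with library size alone, 5 with a covariate for sex and 3 to 5 when single libraries were left out. With no filter on low counts 1 member (Gatm) was higher, though its groups overlapped, and 0 were higher otherwise. Genes changed among all tested were 2739, and 846 to 2785 when single libraries were left out. Same-numbered replicates had deviations from their group means that correlated at −0.111, −0.174 and 0.0182 across genes, so the numbers were not taken to pair the samples. With the replicate block, 1731 genes changed and 3 members were lower, and Ckm, Gamt and Slc6a8 did not pass (adjusted p = 0.0919, 0.0570 and 0.0874). The block also lost Prkaa2 (0.0558), Prkab2 (0.0550), Camkk2 (0.0750), Paics (0.0688), Alas2 (0.0507) and 1700119I11Rik (0.0722). Myod1 (0.121), Emcn (0.0755) and the 3 lower skeletal muscle markers (0.139 to 0.204) were lost with the block as well. It left 1 lower gene in the AMP-activated protein kinase list and 3 in the purine cycle and salvage list. In the paired exact sign-flip test over replicate numbers, p was 0.25, the smallest possible with 3 pairs, for the Ckb and Ampd3 shares, and 0.5 for the mitochondrial share. Leaving out single libraries, the Myf5Cre-Pcyt2 minus control difference was 0.0902 to 0.122 percentage points for the Ckb share, 0.319 to 0.538 for the Ampd3 share and −0.216 to 0.321 for the mitochondrial share. The cause of these changes was not tested. Ckmt1 was too shallow for any comparison at this depth.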
